A study of Mus musculus with 23 samples.

Results

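The response of microglia to lipopolysaccharide (LPS) was examined in adult male mice whose mothers had undergone maternal immune activation (MIA), by comparing 5 libraries made after LPS (MIA_LPS) with 6 made after saline (MIA_SAL). These 11 of the 23 libraries of the series were taken by their labels. Each library is a list of ATAC-seq peaks, stretches of open chromatin that the Tn5 transposase could enter, from microglia of the striatum. The mice were 8 to 10 weeks old, LPS was given intraperitoneally, 4500 endotoxin units for each gram of body weight, and the cells were taken 18 hours after LPS or saline. Both groups share the prenatal exposure. The sources used here do not give its agent or the genotype and strain of the mice. Control offspring (5 CON_SAL and 7 CON_LPS libraries) served for 1 comparison at the end. Live cells were sorted as CD11b+, CD45-low and P2RY12+, so P2RY12, a protein of resting microglia, chose the cells in both groups. Each library has its own identity code in the labels, but nothing there states that the codes are animals, so the p-values cover only the spread among libraries, which may be technical. One number within the code, of unstated meaning, is shared by MIA_LPS replicate 3 with MIA_SAL replicates 3 and 4, by MIA_LPS replicate 2 with MIA_SAL replicate 2, by MIA_LPS replicate 5 with MIA_SAL replicate 6, and by MIA_SAL replicates 1 and 5, in all 9 of the 11 libraries.

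LPS, a component of the bacterial cell wall, is bound by CD14 and by TLR4 with its partner MD-2. Through the adaptors MyD88 and TRIF the receptor activates kinases of the IRAK, TAK1 and IKK families. These release NF-kB from its inhibitor IκBα and drive the MAP kinases, AP-1 and the interferon regulatory factors. Many inducible elements of macrophages lie far from the start sites of genes, at sites already marked by the lineage factor PU.1. Microglia keep their resting identity under TGF-beta, through SMAD proteins and factors such as SALL1 and MEF2C, and lower genes of that identity during inflammation. Feedback inhibitors and glucocorticoids limit the response.

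Peaks of the 11 libraries on chromosomes 1 to 19 and X were merged into intervals on the mm10 genome. In each library the best 33900 peaks by the authors' −log10 p were ranked, and an interval received the rank percentile of its best peak, from 0 (no peak) to 100 (strongest peak). Differences are given in points of this scale as LPS minus saline. They are differences of rank within lists of equal length, so a fall at one place and a rise elsewhere are not independent. In a bulk library, fewer cells with an open site and less opening per cell cannot be told apart.

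The start sites of genes show both directions of change, and 8 of them are printed because they hold, or in 1 case lack, the motif letters that the counts below turn on. They were chosen after their values were seen. Each sequence is the 250 bases before the start site in the RefSeq promoter table for GRCm38.p6, the patched release of the build known as mm10, 5′ to 3′ on the strand of the gene. Capitals mark matches to 4 motifs on either strand: AP-1 (TGANTCA), the interferon-stimulated response element (ISRE, which is GAAA, any 2 bases and GAAA), C/EBP (TTGCNNAA) and the NF-kB consensus. The first 7 promoters rose with LPS and Sparc fell.
Smim14 (chr5:65484062-65484311, minus strand): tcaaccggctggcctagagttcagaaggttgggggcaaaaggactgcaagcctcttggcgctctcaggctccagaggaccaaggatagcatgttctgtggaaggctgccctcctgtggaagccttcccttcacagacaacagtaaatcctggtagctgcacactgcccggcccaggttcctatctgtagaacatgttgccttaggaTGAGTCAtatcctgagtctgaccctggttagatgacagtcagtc
Mt2 (chr8:94172368-94172617, plus strand): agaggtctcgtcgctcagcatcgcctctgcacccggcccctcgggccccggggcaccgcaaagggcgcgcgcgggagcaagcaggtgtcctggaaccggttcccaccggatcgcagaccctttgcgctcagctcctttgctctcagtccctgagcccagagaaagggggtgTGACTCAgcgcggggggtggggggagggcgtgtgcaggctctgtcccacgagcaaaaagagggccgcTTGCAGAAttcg
Shc1 (chr3:89421371-89421620, plus strand): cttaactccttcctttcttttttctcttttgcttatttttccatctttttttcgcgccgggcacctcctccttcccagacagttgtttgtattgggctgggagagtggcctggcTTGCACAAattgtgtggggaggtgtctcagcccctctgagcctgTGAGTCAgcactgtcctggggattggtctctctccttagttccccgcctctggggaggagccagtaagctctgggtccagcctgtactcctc
Cd80 (chr16:38458683-38458932, plus strand): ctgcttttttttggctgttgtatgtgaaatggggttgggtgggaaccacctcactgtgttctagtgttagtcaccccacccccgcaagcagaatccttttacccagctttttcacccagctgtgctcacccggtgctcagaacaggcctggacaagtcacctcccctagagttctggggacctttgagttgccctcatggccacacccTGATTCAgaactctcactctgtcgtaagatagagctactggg
Anxa2 (chr9:69453433-69453682, plus strand): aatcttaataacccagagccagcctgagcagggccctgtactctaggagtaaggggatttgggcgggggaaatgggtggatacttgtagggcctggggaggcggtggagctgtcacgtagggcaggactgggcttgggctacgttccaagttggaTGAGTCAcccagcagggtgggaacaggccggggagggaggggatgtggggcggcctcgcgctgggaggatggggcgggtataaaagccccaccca
Gbp2 (chr3:142620413-142620662, plus strand): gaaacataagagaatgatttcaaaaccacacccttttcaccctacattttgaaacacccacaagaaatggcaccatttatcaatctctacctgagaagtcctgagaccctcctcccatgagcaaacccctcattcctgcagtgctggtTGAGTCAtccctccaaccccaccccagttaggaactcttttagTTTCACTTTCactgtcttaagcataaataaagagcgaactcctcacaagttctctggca
Cxcl2 (chr5:90903649-90903898, plus strand): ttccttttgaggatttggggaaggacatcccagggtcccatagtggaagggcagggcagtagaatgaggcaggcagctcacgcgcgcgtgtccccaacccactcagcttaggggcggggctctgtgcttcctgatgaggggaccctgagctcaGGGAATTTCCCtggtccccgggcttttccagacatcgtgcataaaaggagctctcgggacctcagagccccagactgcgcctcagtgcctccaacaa
Sparc (chr11:55420081-55420330, minus strand): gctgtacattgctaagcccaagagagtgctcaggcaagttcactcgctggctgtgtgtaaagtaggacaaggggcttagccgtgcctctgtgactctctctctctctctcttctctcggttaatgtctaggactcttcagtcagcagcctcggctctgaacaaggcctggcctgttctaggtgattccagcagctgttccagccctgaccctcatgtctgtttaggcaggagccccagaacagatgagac

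An AP-1 match began 44 bases before the start of Smim14, which encodes a small membrane protein, 79 before Mt2, 92 before Shc1, 42 before Cd80, 95 before Anxa2 and 102 before Gbp2. Cxcl2 held an NF-kB match 97 bases before its start, found on both strands 1 base apart and so 1 site, and Gbp2 an ISRE match 59 bases before. Mt2 and Shc1 also held a C/EBP match, 12 and 136 bases before the start. No match to these 4 motifs was found in the Sparc sequence, which says only that these letters are not in that window.

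The interval at the start of Mt2, a metallothionein that binds zinc and is induced by glucocorticoids, stood at 63.5, 73.9, 47.5, 76.7 and 60.7 in MIA_LPS libraries 1 to 5. In MIA_SAL it ran from 0 over a median of 2.70 to 21.0. The groups did not overlap, and the difference of 57.1 points (SE 8.69) passed limma's test with an adjusted p of 7.52e-05. Cd80, which costimulates T cells, had no start-site peak in any saline library and ranks of 49.1, 43.3, 56.3, 10.3 and 46.7 after LPS (41.1 points, SE 8.78, limma adjusted p = 0.00215). The start of Cxcl2, a chemokine that attracts neutrophils, was at 59.3, 66.4, 76.4, 65.1 and 69.7 after LPS, against 0, 14.1 and 53.3 as the lowest, median and highest saline values (limma adjusted p = 0.000721). Every LPS library again stood above every saline library. Shc1, an adaptor of receptor tyrosine kinases, rose by 44.9 points and Anxa2, a membrane protein that binds calcium and phospholipid, by 40.5. Smim14 rose by 59.2 points, the most among the start sites shown. Gbp2, a guanylate-binding protein induced by interferon, was less even, with 20.5, 59.5, 68.6, 47.8 and 64.5 after LPS and up to 41.0 after saline (37.7 points, SE 10.2, limma adjusted p = 0.0141), so its groups overlapped, and by rank of fold it was not called (adjusted p = 0.0544). The start of Sparc, a matrix protein of resting microglia, moved the other way, with 26.1, 40.3, 23.7, 40.6 and 22.8 after LPS against 67.0, 74.6 and 78.5 (−42.8 points, SE 6.02, limma adjusted p = 3.49e-05).

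Over all start sites, those in intervals that rose carried AP-1 letters more often than those in intervals that fell. Of 21037 start-site windows of protein-coding genes (250 bases before to 50 after the start), 185 lay in intervals called higher after LPS, 321 in intervals called lower and 9861 in tested intervals that were not called. AP-1 letters were in 20.5% of the windows called higher, 0.935% of those called lower, 3.92% of those not called and 7.04% of all. ISRE letters were in 5.95%, 0.312%, 2.78% and 3.38% in the same order, and C/EBP letters in 15.1%, 5.92%, 7.24% and 10.3%. NF-kB consensus letters ran the other way, in 4.86%, 9.03%, 5.28% and 4.86%. PU.1 letters (GAGGAAGT) were in 5.41%, 2.49%, 3.19% and 3.15%, the cAMP response element (TGACGTCA) in 1.62%, 1.87%, 3.76% and 2.26%, and the E-box (CACGTG) in 12.4%, 10.9%, 10.8% and 7.91%. The GC box (GGGCGG) was in 56.8%, 65.7%, 70.3% and 46.7%. Base composition moved with these shares: median GC content was 58.0% in windows called higher, 62.7% in those called lower and 62.3% in those not called, and the observed over expected ratio of CpG was 0.587, 0.711 and 0.807. The part of base composition in the motif shares was not tested.

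**Figure D1:**
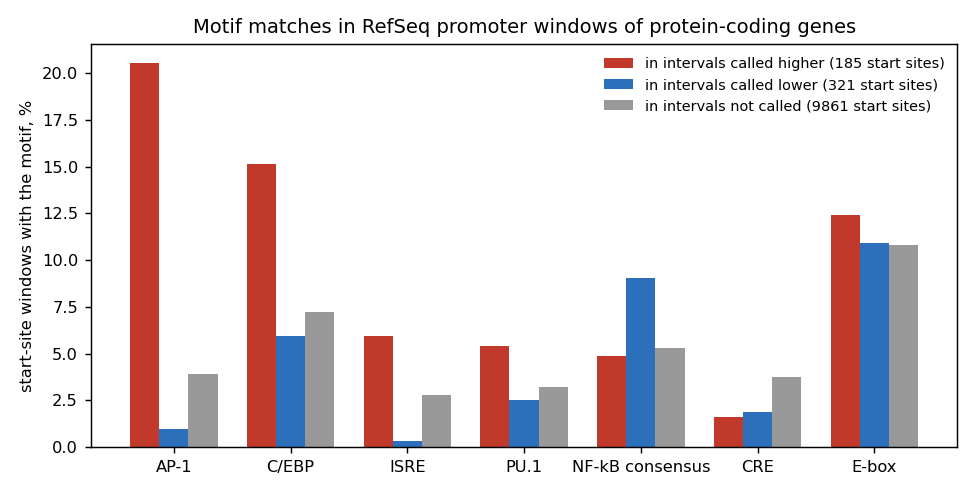
Percentage of RefSeq start-site windows holding each motif (vertical axis) for 7 motifs (horizontal axis), with bars for windows in intervals called higher after LPS (red, 185 start sites), called lower (blue, 321) and tested but not called (grey, 9861). The red AP-1 bar, at 20.5%, stands above the blue bar at 0.935% and the grey bar at 3.92%, while for the NF-kB consensus the blue bar is the highest.

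None of 6 library measures passed a test between the groups. The deposited lists held 33939 to 65625 peaks in MIA_LPS and 35722 to 68298 in MIA_SAL, and the number of reads is unknown. Peak number, sorted cells and, in the lists of equal length, median fold, lowest −log10 p, share of peaks at gene ends and median peak width were compared. Their exact permutation p-values were 0.195 to 0.829 (6 measures, two-sided, adjusted p = 0.829 for each). MIA_LPS replicate 3 had the shortest list. Gene ends, start and end alike, were checked for the markers of the labelled cell type: 9 of 10 microglial markers, all but Gpr34, had a peak there, 9 in every LPS library and 8 or 9 in the saline libraries. Their summed rank percentile was 452 to 539 after LPS and 506 to 631 after saline. Of 15 markers of border-associated macrophages 9 had a peak at a gene end in some library, 2 to 6 per LPS and 0 to 3 per saline library. Their summed rank percentile was 82.6 to 207 after LPS and 0 to 83.3 after saline, with Cd163, Lyve1, Pf4, Folr2, Clec10a and Cd209f at 0. Of 22 monocyte and neutrophil markers 6 had a peak: S100a8 and Mmp8 in 4 LPS libraries each, Camp in 2 LPS libraries, and Csf3r, Itga4 and Fn1 in both groups, with sums of 116 to 282 and 95.3 to 141. The others, among them Ly6c2, Ccr2, S100a9 and Ly6g, were at 0. A peak in some library was found for 11 of 20 neuron, 4 of 12 astrocyte, 3 of 13 oligodendrocyte, 5 of 13 endothelial and 4 of 15 lymphocyte markers. Aldoc, Mbp, Cnp, Kdr, Flt1, Cd3d, Cd79a and Ppp1r1b had one in all 11 libraries, while Gfap, Aqp4, Olig2, Cldn5, Cdh5 and Cd3e were at 0. The part of such cells in the results was not tested.

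LPS changed openness at 13.3% of the tested intervals, and more rose than fell. Of 60432 merged intervals 38572 were tested because 3 or more of the 11 libraries held a peak there, and limma called 5149 at an adjusted p under 0.05 (Benjamini-Hochberg). Higher after LPS were 3159 (8.19%), with a median difference of 33.0 points, and lower were 1990 (5.16%), with a median of −29.3. The median over all tested intervals was −0.319. In 1910 of the higher and 933 of the lower calls the groups did not overlap. Over all tested intervals they did not overlap in 3137 (8.13%), 2042 with LPS higher (5.29%) and 1095 with LPS lower (2.84%). Ranked by the authors' fold enrichment in place of the −log10 p, 3301 intervals passed (8.56%), 2163 higher and 1138 lower. Both rankings called 2971, and no interval was called in opposite directions. The excess of rises depended on how the lists were taken: with all deposited peaks 2254 of 2514 calls were higher (89.7%), with a −log10 q of at least 5 1122 of 1168 (96.1%), without MIA_LPS replicate 3 and MIA_SAL replicates 3 and 4, which share an identity number, 52.3% of 5804, and with normal scores 53.4% of 6318. Within the libraries of fewer than 20000 sorted cells (2 LPS and 4 saline) 197 intervals passed, 36.0% of them higher, and within those of more (3 LPS and 2 saline) 2382 passed, 71.9% higher.

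Among the 17581 intervals with a peak in all 11 libraries, falls outnumbered rises, at 897 against 733 (9.27% called). With a peak in 5 of the 11 libraries 756 rose and 118 fell. The number of libraries with a peak is in part set by the change itself, since a site gained in all LPS libraries alone has 5 and a site lost from them all has 6. Fisher's exact test on the presence of a peak called 872 of 5226 testable intervals (16.7%), 727 higher (13.9%) and 145 lower (2.77%). Each of these had a peak in all 5 LPS and no saline library or in all 6 saline and no LPS library, the only patterns that could pass (Fisher's exact p = 0.00216, adjusted p = 0.0130). Of these, 804 were also called by rank. The split by direction moved with the lists: falls were 317 with lists of 16950 peaks (59.9% of calls higher) and 304 without MIA_SAL replicate 3 (71.7% higher).

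**Figure D2:**
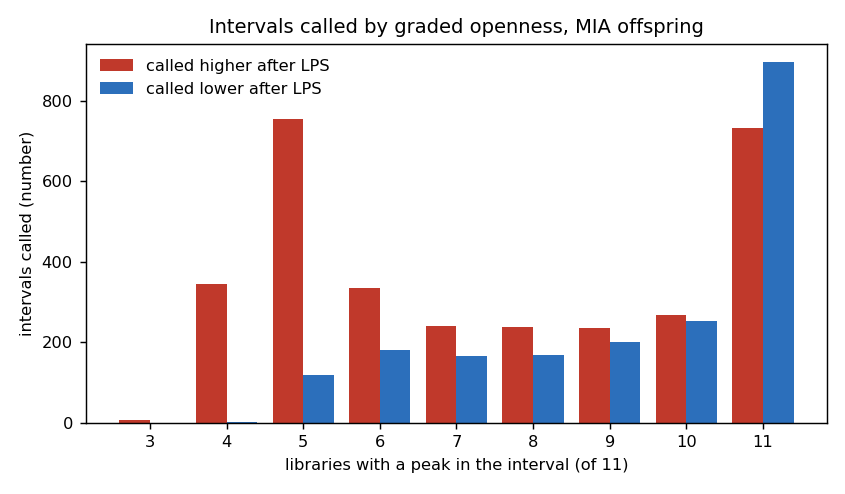
Number of intervals called by rank (vertical axis) against the number of the 11 libraries with a peak in the interval (horizontal axis), with red bars for intervals higher after LPS and blue bars for intervals lower. At 11 libraries the blue bar, 897, is taller than the red, 733; the red bar at 5, 756, includes the sites gained in all 5 LPS libraries and no other, which fall there by construction.

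Start sites changed less often than distal intervals. Within 1 kb of an annotated start site, 2.29% of 9780 tested intervals rose and 3.13% fell. In gene bodies 9.38% of 17108 rose and 5.97% fell, and between genes 11.4% of 11684 rose and 5.67% fell. Start sites held 25.4% of the tested intervals, 7.09% of those called higher and 15.4% of those called lower. Start sites were missing from the table for some genes, 17274 of 21631 protein-coding genes having one. Intervals are named below by the gene that holds them or, outside genes, by the nearest gene end within 100 kb, and such a name does not show that the interval controls the gene.

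Of the 3159 intervals called higher 1034 had no peak in any saline library. Such intervals met the filter of 3 libraries through the LPS libraries alone. The largest rise was 8248 bp from Niban2, a cytoplasmic protein of the Niban family (chr2:32867426-32867886). Its rank percentiles were 92.1, 87.9, 88.3, 81.9 and 90.4 in MIA_LPS 1 to 5 and 0 in all 6 saline libraries, a difference of 88.1 points (SE 7.32, limma adjusted p = 1.50e-07). An interval between genes 22038 bp from Nfkbia, which encodes the NF-kB inhibitor IκBα (chr12:55466305-55467371), stood at 82.1, 67.1, 84.1, 80.9 and 67.7 after LPS and 0 in every saline library (limma adjusted p = 2.44e-06). Dusp1, a phosphatase that switches off MAP kinases, had such an interval 6088 bp away (chr17:26514560-26515214), at 74.9, 71.4, 84.7, 72.8 and 74.1. Within Ikbke, an IKK-related kinase of the interferon branch of TLR4 signalling (chr1:131276645-131277312), the values were 81.5, 65.4, 68.0, 80.7 and 72.9. Fosl2, a subunit of AP-1, had an interval at 75.2, 66.2, 59.0, 75.2 and 71.8, 34226 bp away. In these the 6 saline libraries had no peak, which follows from their choice among intervals called on presence.

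Further gained intervals lay within Ahnak, a giant scaffold protein (75.6 points), and Tns3, a tensin of focal adhesions, where the LPS values were even (67.8, 70.6, 67.9, 67.6 and 69.4). Others lay near Azin1, a regulator of polyamine synthesis (74.4 points), Stxbp2, which serves exocytosis (72.8), Gcm1, a transcription factor known from placenta (74.6), Treml1, a receptor of the Trem family (68.2), and Slfn8, a Schlafen family gene (67.8). A call on presence was a condition for choosing these 12, so it adds no support. Each was also called by rank of fold.

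Of the 1990 intervals called lower 240 had no peak in any LPS library. These met the filter of 3 libraries through the saline libraries alone. The deepest fall lay 76582 bp from 1700025G04Rik, an uncharacterised gene (chr1:152167703-152168683), with 68.0, 72.5 and 75.5 as the lowest, median and highest saline values and 0 in all 5 LPS libraries (−72.2 points, SE 7.36, limma adjusted p = 2.44e-06). Kcnk2 and Kcnk9, which encode potassium leak channels, had intervals with saline ranges of 53.5 to 75.2 and 53.2 to 68.1 and no peak after LPS (−64.6 and −58.2 points). An interval within Golm1, a Golgi membrane protein of the resting microglial set (chr13:59672255-59672598), fell from a median of 56.7, while another within the gene rose by 19.9 points, a call lost when any 1 of MIA_LPS replicates 2 and 5 or MIA_SAL replicates 1, 2, 4, 5 and 6 was left out. An interval near Pmepa1, an inhibitor that TGF-beta signalling itself induces, fell from a median of 53.3. Thrb, the thyroid hormone receptor beta, lost an interval in its gene body (−51.2 points). Uba7, the enzyme that activates the ubiquitin-like protein ISG15, did so by −63.1 points, but this was not called by rank of fold (limma adjusted p = 0.0553). The interval at the start of Uba7, open in every library, rose by 34.5 points (limma adjusted p = 0.000815). Efcc1, Trabd2b and Cpped1 also had lost intervals, at −65.2, −51.3 and −50.7 points. In Cpped1 the saline libraries spread from 19.8 to 60.9.

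**Figure D3:**
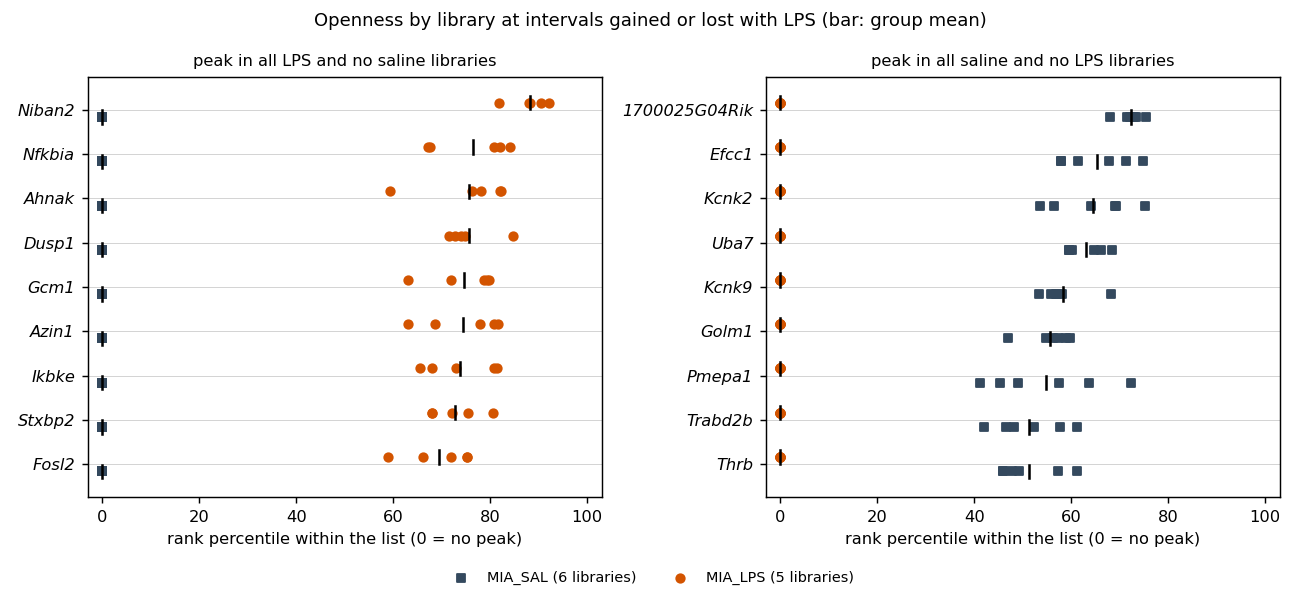
Rank percentile (horizontal axis, 0 for no peak) in each library for the 9 intervals gained (left) and the 9 lost (right) with the largest differences, named by gene. Orange circles are the 5 MIA_LPS and dark squares the 6 MIA_SAL libraries, with a bar at each group mean. In every row one group sits wholly at 0, which the choice by presence requires, while the other lies between 41.3 and 92.1.

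Many loci that were open in every library changed by degree. The largest rise of this kind was 33275 bp from Rfx8, a member of the RFX transcription factor family (chr1:39754264-39755216). It stood at 83.3, 77.7, 82.5, 75.2 and 74.3 after LPS against 10.2, 19.5 and 30.6 after saline (59.3 points, SE 6.93, limma adjusted p = 6.05e-06). St3gal1, a sialyltransferase, followed with 76.6, 60.9, 82.4, 74.8 and 83.8 against 6.77, 18.7 and 34.4. Slc39a14, a zinc and iron transporter, went from a saline median of 34.0 to 85.4, 83.1, 92.6, 70.3 and 78.1 (49.3 points). For each of these the lowest LPS library was above the highest saline library. Further rises lay at Rtn4rl1, a relative of the Nogo receptor (54.5 points), Mylk2, a myosin light chain kinase (54.2), Snx18, a sorting nexin (52.3), and Tmem63a, an ion channel (52.1). H6pd, which makes NADPH in the endoplasmic reticulum, rose by 51.3 points, Vash1, a tubulin carboxypeptidase, by 50.5, and Bicral, a subunit of a chromatin remodelling complex, by 50.4. Nceh1, a cholesterol ester hydrolase, rose by 47.8, and the start of Cd44, the hyaluronan receptor, by 47.7, with LPS values of 56.4, 57.4, 68.2, 65.1 and 79.3.

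Falls of degree reached −55.4 points within Fat3, an atypical cadherin (chr9:15932961-15933354), where saline values of 76.3, 80.0 and 85.0 gave way to 9.79, 28.2, 49.9, 24.1 and 12.5 (SE 6.57, limma adjusted p = 7.12e-06). The LPS libraries were spread, with replicate 3 the highest, yet none reached the saline range. An interval near Tnfrsf13c, the receptor for the B cell factor BAFF, fell to 10.4, 42.6, 32.8, 10.6 and 2.89 from 67.0, 72.6 and 77.5. Klhl3, an adaptor of a ubiquitin ligase, fell evenly, to 18.9, 22.6, 17.7, 12.5 and 19.2 from 52.7, 65.0 and 71.9. Ptprs, a receptor phosphatase, fell by 46.6 points, Nav2, a neuron navigator protein, by 46.1, and Chn2, a GTPase-activating protein for Rac, by 43.7. Prpsap2, Trpm1, Zdhhc14, Slc38a11 and Slc25a26 changed by −47.8, −47.4, −47.2, −45.2 and −43.8 points. The groups did not overlap in these 11 intervals, but in the 1 further fall of this set, of −43.6 points and not described here, they did.

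**Figure D4:**
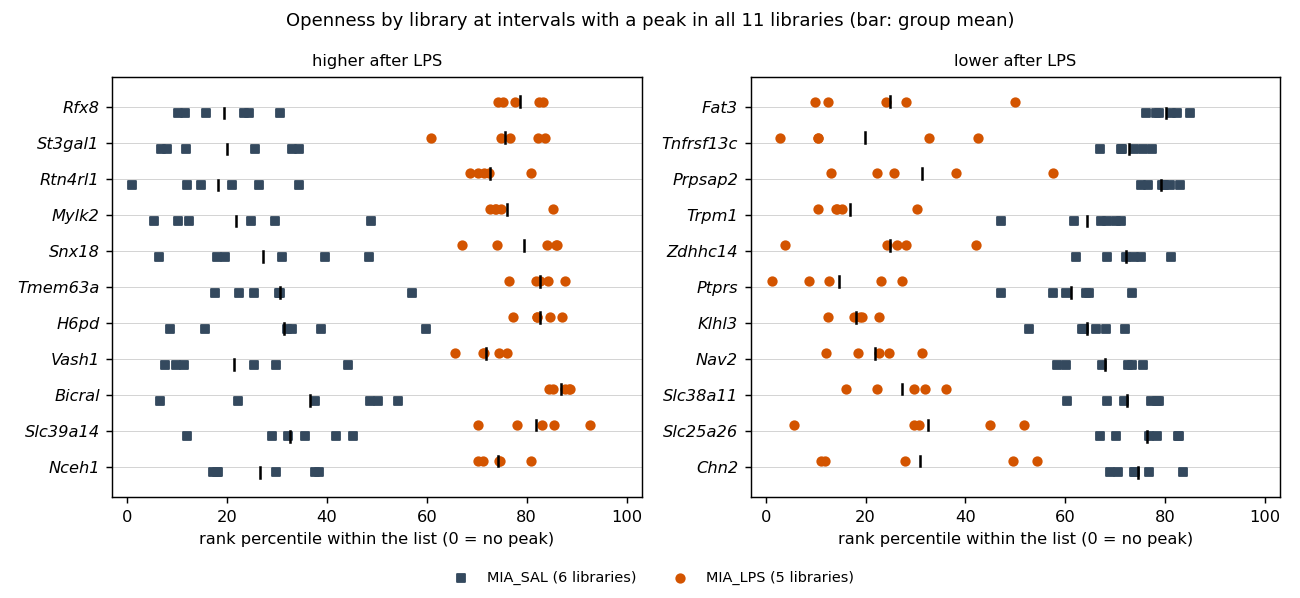
Rank percentile (horizontal axis) in each library for intervals with a peak in all 11 libraries, 11 higher (left) and 11 lower (right) after LPS. Orange circles (MIA_LPS) and dark squares (MIA_SAL) form separate clouds in every row, with bars at the group means, and no interval is at 0 in any library.

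At the loci of TLR4 signalling, rises were common and falls rare. Of 113 tested intervals at 30 genes of the pathway 18 rose (15.9%) and 1 fell (0.885%), beside 8.19% and 5.16% of all tested intervals. The list's median difference was 0.840 points, beside −0.319 for all. Within Tlr4 itself, the LPS receptor, an interval stood at 51.4, 52.3, 49.1, 26.5 and 58.0 after LPS and 0 in every saline library (limma adjusted p = 0.000347). Traf3, an adaptor that leads to interferon, had a gene-body interval at 64.5, 37.1, 44.6, 62.4 and 61.4, also absent from saline. Near Mapk14, the p38 MAP kinase, an interval rose from 0, 25.6 and 55.0 to 78.2, 70.6, 72.3, 82.8 and 74.9. Irak2, a kinase of the pathway, had a rise of 42.6 points. The start of Irak3, its inhibitory relative, went from a saline median of 49.3 to 64.6, 62.7, 81.2, 65.9 and 69.7 (21.9 points, limma adjusted p = 0.0148), a rise not called by rank of fold (adjusted p = 0.164). Among 101 intervals of other receptors for microbial patterns 16 rose (15.8%) and 1 fell (0.990%). By rank of fold 9 rises were called on the TLR4 list and 11 on this one, beside 2163 among all 38572 tested intervals. An interval near Tlr2, the receptor for bacterial lipoproteins, was at 70.9, 53.8, 77.6, 55.5 and 53.6 after LPS and 0 in saline. Aim2, a sensor of cytosolic DNA, rose by 56.1 points and Fpr2, a receptor for formyl peptides, by 55.3.

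NF-kB targets and acute inflammatory genes had one of the higher shares of rises, 39 of 196 intervals (19.9%) with 6 falls (3.06%) and a median of 4.98 points. Of the 37 genes tested, 17 had rises only, 1 falls only, 4 both and 15 neither. Among all 13315 genes with a tested interval 2085 had a rise and 1551 a fall, and 413 are in both counts. By rank of fold 19 rises and 2 falls were called on this list, beside 2163 and 1138 among all 38572 tested intervals. Without MIA_SAL replicate 2 the rises were 24, and without MIA_LPS replicate 3 the falls were 11. Besides Nfkbia, the feedback gene Nfkbiz, an atypical IκB protein, had an interval at 63.9, 60.4, 66.1, 45.4 and 75.4, 56564 bp away, where 4 saline libraries had no peak and the highest reached 4.05. Tnfaip3, the ubiquitin-editing inhibitor A20, had a rise of 48.2 points 38206 bp away. An interval near Nos2, the inducible nitric oxide synthase, was at 65.7, 50.5, 46.6, 62.0 and 70.1 after LPS and absent from saline. Near Il1b, the interleukin 1 beta gene, an interval open in all 11 libraries rose to 73.6, 72.1, 80.7, 82.4 and 76.6 from 7.70, 37.3 and 52.8 (43.0 points, SE 6.95, limma adjusted p = 0.000138). The start of Il1rn, the antagonist of the interleukin 1 receptor, had a peak in all 5 LPS libraries and no saline library (39.4 points, limma adjusted p = 0.00173). The start of Tnf was open throughout and rose by 25.3 points (limma adjusted p = 0.0156), with overlapping groups and no call by rank of fold (adjusted p = 0.329). Cxcl2, whose start site is printed above, also narrowly missed by rank of fold (adjusted p = 0.0549). At Socs3, a feedback inhibitor of cytokine signalling, single intervals went both ways: the largest rise, 7576 bp away, was 48.8 points, and the largest fall, 16009 bp away, was −27.5. Without MIA_SAL replicate 6 that fall was −25.4 points and missed the threshold (limma adjusted p = 0.0575), as it did by rank of fold (adjusted p = 0.0697).

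Interferon-stimulated loci were nearer to the background, with 7 of 73 intervals higher (9.59%) and 2 lower (2.74%). The start of Irf7, a regulator of type I interferon, rose to 59.0, 72.5, 66.3, 65.2 and 60.5 from 0, 0 and 35.8 (54.0 points, limma adjusted p = 0.000185). Irf8, a lineage factor of microglia, had a rise of 48.4 points 10772 bp away, while an interval near Oasl2, a relative of the oligoadenylate synthetases, fell by 37.9 points with groups that overlapped.

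Genes of resting microglia had about as many falls as rises, 24 of 222 intervals higher (10.8%) and 25 lower (11.3%), with a median of −2.06 points. Of its 30 genes 5 had rises only, 7 falls only, 8 both and 10 neither. Among all 13315 genes tested 2085 had a rise and 1551 a fall, 413 of them counted in both. Of the 24 rises 7 were at Smad3, which had no fall and is also on the TGF-beta list. Within P2ry12, whose protein was used to sort the cells, an interval fell to 11.4, 33.9, 39.9, 15.9 and 14.9 from 52.3, 58.5 and 65.9 (−36.2 points, SE 7.71, limma adjusted p = 0.00212). Cst3, the protease inhibitor cystatin C, nearly lost an interval 9291 bp away, with a trace in 1 LPS library against 47.5, 59.2 and 70.7 in saline (−59.3 points). Sparc fell at its start and 12819 bp from the gene (−44.9 points), and an interval within it rose by 24.5 points with groups that overlapped. That rise (limma adjusted p = 0.0411) was lost by rank of fold (adjusted p = 0.0598) and when MIA_LPS replicate 1 or 4 or any 1 saline library was left out. Near Tmem119, a membrane protein that marks microglia, the fall was −35.5 points with groups that overlapped, and it was not called by rank of fold (adjusted p = 0.184). The start of Mef2c, a lineage transcription factor, slipped from 83.3, 91.0 and 93.6 to 75.0, 76.3, 83.5, 75.4 and 79.2 (−11.3 points, limma adjusted p = 0.0026), also without a call by fold (adjusted p = 0.318). Its relative Mef2a went both ways, −8.13 points at the start (not called by rank of fold, adjusted p = 0.415) and 31.8 points 48787 bp away. Sall1, which keeps microglial identity, gained an interval 5608 bp away (35.9 points), and its start changed by −6.91 points (limma adjusted p = 0.0309), a call lost by rank of fold (adjusted p = 0.777) and without MIA_LPS replicate 4 or 5 or MIA_SAL replicate 1, 3, 4 or 5. By rank of fold the list had 14 rises and 8 falls among its 222 intervals, beside 2163 and 1138 among all 38572 tested. With all deposited peaks it had 6 falls, beside 260 over all intervals.

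TGF-beta signalling loci divided by gene. Of 128 intervals 22 rose (17.2%) and 4 fell (3.13%), and all 4 falls were at Tgfbr2, the type II receptor. Without MIA_LPS replicate 3 the list had 8 falls. By rank of fold it had 13 rises and 1 fall, beside 2163 and 1138 among all 38572 tested intervals. A gene-body interval of Tgfbr2 (chr9:116122855-116123514) had no peak in any LPS library and 25.7, 50.8 and 61.3 in saline (−46.8 points, SE 8.63, limma adjusted p = 0.000546). Smad3, the transcription factor that the receptor activates, had 7 of 19 intervals higher and none lower. The strongest, 92110 bp from the gene (chr9:63850104-63850814), stood at 53.1, 64.5, 75.5, 56.6 and 58.2 after LPS and 0 in saline. Smad1 and the receptor Acvrl1, which act in BMP signalling, each had an interval with a peak in all LPS and no saline libraries (56.5 and 55.4 points). The median over the list was −0.183 points, beside −0.319 for all tested intervals.

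Glucocorticoid targets had the highest share of rises among the lists of pathways, 23 of 113 intervals (20.4%), with 2 falls (1.77%). Of 19 genes tested 12 had rises only, 2 both and 5 neither. Among all 13315 genes tested 2085 had a rise, 413 of them with a fall as well. By rank of fold 15 rises were called on this list, beside 2163 among all 38572 tested intervals. Nfkbia and Dusp1 belong to this list as well as to the inflammatory and immediate early lists, and Mt2 was the third of its leading genes. The immediate early and AP-1 list had 24 of 182 higher (13.2%) and 4 lower (2.20%), the latter 12 without MIA_LPS replicate 3 and 8 without MIA_SAL replicate 6. Its largest rises were at Dusp1, Fosl2 and Fos, whose interval 47207 bp away was at 73.0, 69.3, 59.1, 65.4 and 60.3 after LPS with 1 saline library above 0, at 8.85. Myeloid transcription factors had 40 of 374 higher (10.7%) and 18 lower (4.81%). The rises were led by gene-body intervals of Irf2 (66.8 points) and Runx1 (66.3) and by 1 near Ets2 (56.9). Irf2 had 2 of its 21 intervals higher and 2 lower.

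Glycolysis and hypoxia genes had 16 of 107 intervals higher (15.0%) and 3 lower (2.80%), beside 8.19% and 5.16% of all tested intervals, and a median of 1.26 points. Within Pfkfb3, which makes the activator of phosphofructokinase (chr2:11529918-11530607), values of 77.8, 69.0, 81.4, 74.3 and 81.1 stood against 0, 0 and 42.7 (67.2 points, SE 8.68, limma adjusted p = 1.42e-05). Hk2, a hexokinase, rose by 53.6 points and Slc7a11, the cystine and glutamate exchanger, by 48.9. Lipid and cholesterol genes had 27 of 165 higher (16.4%) and 6 lower (3.64%), or 10 lower without MIA_LPS replicate 3, and a median of −0.175 points. Near Plin2, the coat protein of lipid droplets (chr4:86690188-86690555), values were 78.3, 76.7, 71.9, 66.7 and 73.4 after LPS, with 1 saline library above 0, at 13.9 (71.1 points, SE 7.97, limma adjusted p = 3.78e-06). Apoc1, an apolipoprotein, rose by 59.0 points and Cd36, a scavenger receptor for lipids, by 57.6. Lysosome, autophagy and phagocytosis genes had 24 of 203 higher (11.8%) and 5 lower (2.46%), the falls ranging from 2 without MIA_LPS replicate 5 to 13 without MIA_LPS replicate 3, and their median of −1.02 points was below that of all intervals. The rises included Slc11a1, the metal transporter of phagosomes (66.1 points), Ctsl, a cathepsin (64.9), and the start of Tfeb, the regulator of lysosomal genes (61.8). Tfeb had 1 of its 11 intervals higher and 1 lower. Disease-associated microglial genes had 14 of 109 higher (12.8%) and 3 lower (2.75%), with rises near Lpl, the lipoprotein lipase (51.8 points), at the start of Lgals3, a galectin (46.9), and near Cd68 (42.5), the last not called by rank of fold (adjusted p = 0.248).

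Cell polarity and junctions differed in direction from most lists: 4 of 108 intervals rose (3.70%) and 12 fell (11.1%), and the median was −5.09 points. Within Pard3b, a polarity protein, saline values of 57.2, 70.5 and 80.9 fell to 0, 0, 53.6, 0 and 3.76, so MIA_LPS replicate 3 stood far above the other LPS libraries but below every saline library. The start of Prkcz, an atypical protein kinase C of the same complex, had 36.5, 62.6 and 68.3 in saline and a peak in only 1 LPS library, at 2.54 (−55.2 points, limma adjusted p = 0.000134). Tjp1 of tight junctions lost a gene-body interval altogether (−32.8 points). With all deposited peaks 4 falls were called on this list, beside 260 over all intervals, and with normal scores 19, beside 2943. The largest rise was at F11r, a junctional adhesion molecule also found on leukocytes (64.5 points). Actin, adhesion and migration genes had 33 of 263 higher (12.5%) and 12 lower (4.56%). The falls were 6 without MIA_LPS replicate 5 or MIA_SAL replicate 5 and 7 without MIA_LPS replicate 1 or MIA_SAL replicate 2. The rises were led by Srgap2, a regulator of actin at the membrane (60.3 points), an interval 46880 bp from Cd44 (56.6), and Pecam1 (52.4). Srgap2 had 3 of its 25 intervals higher and 2 lower.

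Other lists stood between. Chromatin and DNA methylation genes had 20 of 171 higher (11.7%) and 9 lower (5.26%), with gained intervals near Hdac4 (65.1 points) and within Tet2 (56.9), which oxidises methylated cytosine. Heat shock and protein folding genes had 7 of 48 higher (14.6%) and 1 lower (2.08%), with Ern1, a sensor of unfolded protein, at 52.6 points. Receptors for growth factors and cytokines had 17 of 179 higher (9.50%) and 8 lower (4.47%, or 13 falls without MIA_SAL replicate 3): the locus of Csf2rb, the receptor subunit for GM-CSF, rose by 58.1 points, while Il6st, the signal transducer of the interleukin 6 family, lost an interval (−45.4 points). Antigen presentation and costimulation had 7 of 83 higher (8.43%) and 5 lower (6.02%), with Cd40, a costimulatory receptor, at 43.7 points and H2-K1, a class I molecule, at −43.8. Housekeeping genes had 1 of 39 higher (2.56%) and 2 lower (5.13%). The rise was 12688 bp from Actb, to 96.3, 98.4, 96.7, 96.3 and 93.3 from 55.0, 61.1 and 83.0. Actb also had 1 of the falls.

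Loci named for markers of other cells also changed. Border-associated macrophage markers had 10 of 37 intervals higher (27.0%) and 2 lower (5.41%), beside 8.19% and 5.16% of all tested intervals. Of the rises 4 were at F13a1 and 3 at Ccr1, which also had the 2 falls. Mrc1, Ms4a7, Ccl24, Siglec1 and Apoe had tested intervals but no call. A gene-body interval of F13a1, a transglutaminase of such macrophages, was at 74.0, 31.9, 56.9, 62.5 and 54.4 after LPS and 0 in saline (56.0 points, limma adjusted p = 0.000104). Of monocyte and neutrophil loci 5 of 33 rose (15.2%) and 1 fell (3.03%), Csf3r by 34.1 points and Ltf by −32.6, the latter not called by rank of fold (adjusted p = 0.0816). Endothelial loci had 7 of 34 higher (20.6%) and 0 lower, lymphocyte loci 2 and 1 of 18, neuron loci 0 and 2 of 18, astrocyte loci 1 and 3 of 22, and oligodendrocyte loci 2 and 1 of 21. The summed level of the macrophage markers at gene ends, given above, moved in the same direction as their rises. The endothelial sum moved the other way from its rises, at 74.5 to 104 after LPS and 97.7 to 159 after saline. Astrocyte markers with a peak at a gene end numbered 2 in every LPS library and 3 or 4 in the saline libraries. Their sums were 97.8 to 132 and 129 to 181. For every list of such markers the sums of the groups overlapped. The part of these levels in the counts was not tested.

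**Figure D5:**
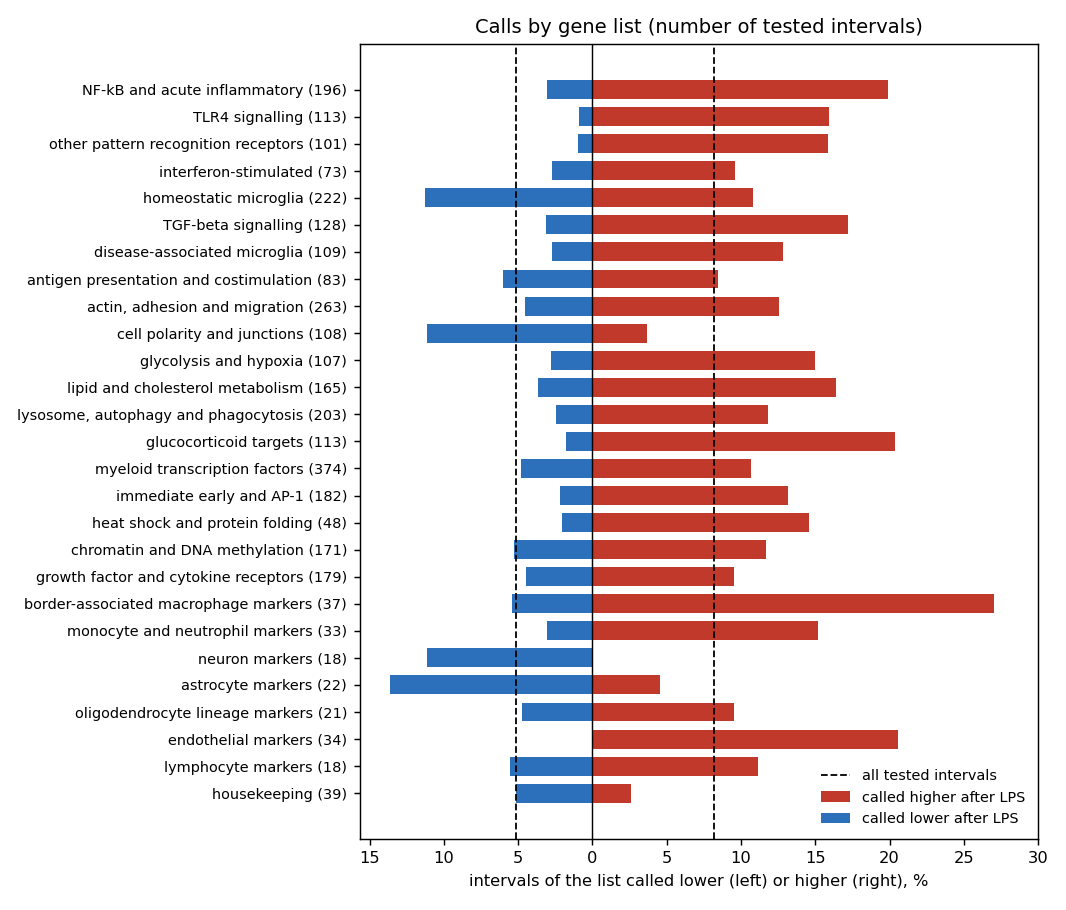
Percentage of the tested intervals of each gene list called higher (red, to the right) or lower (blue, to the left) after LPS, with the number of intervals beside the name and dashed lines at 8.19% and 5.16%, the shares over all tested intervals. The longest bars are those of markers of other cells: border-associated macrophages (27.0%) and endothelial cells (20.6%) on the right, and astrocytes (13.6%) on the left. Bars for glucocorticoid targets and the NF-kB list reach 20.4% and 19.9% on the right. Resting microglial genes and cell polarity reach 11.3% and 11.1% on the left.

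Some loci changed at several intervals. Lpp, a LIM domain protein of focal adhesions, had 12 of its 35 tested intervals higher and 1 lower. They spread within the gene and up to 66231 bp beyond it, and the largest rise, 18331 bp away, was 63.5 points, with LPS values of 64.3, 63.2, 62.7, 55.2 and 71.9 and no saline peak. Ppm1h, a protein phosphatase, had 7 of 19 higher, as did Smad3, and Ptafr, the receptor for platelet-activating factor, 6 of 11. Abi1, Adamtsl4, Agap1, Etv6, Frmd4a and Klf6 were among the genes with 5, and Abi1 also had 1 lower and Frmd4a 2. In the lower direction Nav2 had 5 of 30 and none higher, and Col15a1 5 of 20 with 2 higher. Of 13315 genes with a tested interval, at least 3 intervals were higher at 212 and lower at 59. A gene with fewer than 3 tested intervals could not reach this count. Lpp spans 599 kb and Nav2 651 kb, Ptafr 18.6 kb and Klf6 8.91 kb, and the part of gene length in these counts was not tested.

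The same intervals were compared in control offspring, whose libraries are separate from those above. There limma called 4580 of the 38572 (11.9%), 2577 higher (6.68%) and 2003 lower (5.19%). Of the 3159 intervals higher in MIA offspring 1879 were called higher and 3117 had a positive difference, with a median of 27.5 points. Of the 1990 lower ones 876 were called lower and 1940 had a negative difference, with a median of −20.4. None was called in the opposite direction. Intervals were chosen on the MIA libraries, so smaller medians in control offspring are no measure of a difference between the groups. At Niban2 the control means were 86.1 after LPS and 0 after saline, at Nfkbia 71.4 and 4.97, at 1700025G04Rik 2.49 and 74.2, and at Fat3 18.5 and 81.0. Some intervals with a call in MIA offspring had none in control offspring: F13a1 was at 13.1 and 0 (limma adjusted p = 0.251), Srgap2 at 28.1 and 0 (0.0686), and Hspa8, a heat shock cognate protein whose interval rose by 31.9 points in MIA offspring, at 3.19 and 3.79 (0.966). By rank of fold the Hspa8 interval was not called in MIA offspring (3.60 points, adjusted p = 0.390). These differences between the groups of offspring did not pass the test of the difference itself. The interaction of LPS with prenatal history called 0 of 44473 intervals (0%) by limma, with 1990 (4.47%) at an unadjusted p under 0.05 and a smallest adjusted p of 0.981. Ranked by fold the interaction also called 0, with 1865 (4.19%) at an unadjusted p under 0.05 and a smallest adjusted p of 0.0513.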

How the data were processed

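The deposited files were 1 peak list per library, with no header and no read counts. Tools listed in the submitters' processing notes are MACS2, Bowtie2, cutadapt, SAMtools, Picard and DiffBind, beside mm10 and GRCm38 as builds. Their versions and settings, not given in the sources used here, are unknown. The authors' columns hold a score (not used here), a ratio that is the fold enrichment at the summit, −log10 p and −log10 q, as the order of columns and the values show. Fold and −log10 p ranked the deposited peaks within 1 list only. The distance of the summit from the peak's start placed the windows of 1 alternative. Libraries were grouped by their titles.

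Lists of 33900 peaks were merged into intervals with a median width of 465 bp and a maximum of 3566 bp, so a wide interval can hold more than 1 peak. Rank percentiles were tested with limma 3.58.1 (trend, robust, R 4.3.3) over 38572 intervals with Benjamini-Hochberg adjustment, presence with Fisher's exact test, and library measures with an exact permutation test over 462 arrangements (scipy 1.17.1). All tests were two-sided, and the smallest exact p is 0.00216. The interaction was fitted in intervals merged over all 23 libraries. The fit was tested on simulated data. Members and gene lists were chosen with earlier results of these data known. Named were the 12 largest rises and falls called by rank and presence, the 12 largest each way with a peak in all 11 libraries (1 or 2 falls of each set are not reported here), up to 3 genes per list, and the genes with most calls. The genes Tlr4, Irak2, Irak3, Tnfaip3, Socs3, Cxcl2, Il1rn, Tnf, Il1b, Gbp2, P2ry12, Tmem119, Sparc, Sall1, Mef2c, Mef2a, Tgfbr2, Smim14, Shc1, Cd80, Anxa2 and Tjp1 were named outside this rule after their values were seen. Genes came from a RefSeq table for GRCm38.p6. Sequence of intervals away from start sites was not analysed here.

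The deviations of libraries sharing a replicate number correlated at −0.00915 to 0.133 over 5 pairs, and those of LPS and saline libraries sharing an identity number at 0.0458 to 0.133 over 4 pairs (other pairs −0.238 to 0.120 in both cases). Neither number was taken to pair the samples, and both were tried as blocks.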

Additional observations from a re-analysis of the deposited data

Results flagged for a closer look

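In 39 of 249 groups of values 1 library stood apart from the rest of its group by Dixon's criterion. Chance alone meets it in about 1 in 20 groups of normally distributed values. Rank percentiles stop at 0, and a group where only 1 library has a peak meets it always. The 39 of 249 therefore cannot be set against that rate. The lowest −log10 p left after the lists were cut to equal length was 23.2 in MIA_SAL replicate 2, with the next of its group at 11.3. The other 38 are rank percentiles of named intervals, each given with the nearest value of the same group except 1 at Ms4a1. MIA_LPS replicate 1 stood above its group at Cst3 (0.0619, next 0). MIA_LPS replicate 3 stood above its group at Dusp1 (84.7, next 74.9), Mylk2 (85.2, next 74.9), Pard3b (53.6, next 3.76) and Ywhaz (18.6, next 0). MIA_LPS replicate 4 stood above its group at Trpm1 (30.4, next 15.3). MIA_LPS replicate 5 stood above its group at Prkcz (2.54, next 0). MIA_SAL replicate 1 stood above its group at Kcnk9 (68.1, next 58.1), Aim2 (18.3, next 0), Fpr2 (16.1, next 0), Plin2 (13.9, next 0) and Socs3 (20.1, next 0). MIA_SAL replicate 3 stood above its group at Tmem63a (57.1, next 30.7), Irf8 (7.54, next 0), Lgals3 (45.5, next 22.0), Cd68 (0.0531, next 0), Runx1 (31.9, next 0), Cd2 (27.5, next 0) and Ptafr (44.4, next 7.06). MIA_SAL replicate 4 stood above its group at Pfkfb3 (42.7, next 14.4), Ctsl (23.8, next 0.133), Hdac4 (26.3, next 0) and Tnfaip3 (34.2, next 4.42). MIA_SAL replicate 5 stood above its group at Apoc1 (8.42, next 0), Fos (8.85, next 0), Ccr1 (15.8, next 0) and Ms4a1 (39.2, next 2.98). MIA_LPS replicate 2 stood below its group at Ahnak (59.4, next 76.2), Slc7a11 (40.1, next 65.8) and Hsf2 (17.8, next 47.5). MIA_LPS replicate 3 stood below its group at Irak3 (0, next 33.2), in an interval other than the start described above. MIA_LPS replicate 4 stood below its group at Ms4a1 (32.3), Tlr4 (26.5, next 49.1) and Cd80 (10.3, next 43.3). MIA_SAL replicate 3 stood below its group at Rbfox3 (0, next 25.6). MIA_SAL replicate 4 stood below its group at Oasl2 (42.1, next 58.9). MIA_SAL replicate 6 stood below its group at Cpped1 (19.8, next 50.7) and Mef2a (41.8, next 50.7).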

How the results depend on the processing

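The 5149 calls by rank fell to 3301 with ranking by fold, 3092 with lists taken and ranked by fold, 2514 with all deposited peaks, 2275 with an exact permutation test, 1934 with lists of 16950 peaks and 1168 where −log10 q had to reach 5. They were 197 and 2382 within libraries of fewer and of more than 20000 cells. They were within 1.5 times, from 3912 to 6318, with windows around summits, covariates, normal scores and other filters on the number of libraries. Leaving out 1 library gave 4061 to 5884 by rank, 2387 to 3991 by rank of fold and 920 to 1304 by presence, and 0 for the interaction. Calls by presence fell from 872 to 506 with all deposited peaks and 368 with the limit on q, and to 0 without the filter on the attainable p, since more intervals were then tested. Presence without the 3 libraries of identity number 3 gave no value, as the libraries left cannot reach the p required. The cause of the other changes was not tested. A fit with replicates 1 to 5 and the replicate number as a block called 4825 intervals, against 4329 for these libraries without the block, an alternative chosen after seeing the data. The numbers are not shown to pair the samples, since 2 of 5 LPS libraries correlated best with their own number. With the identity number as a block 5542 were called, and 4279 with saline libraries of 1 identity number averaged, also chosen after seeing the data.

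Of 150 named intervals 56 kept their call under each of the 27 alternatives that covered them, and none changed direction. Calls ended for 54 of 150 with the limit on q, 45 of 129 with lists of 16950 peaks, 40 with the exact permutation test, 32 with all deposited peaks and 23 with ranking by fold. Of those described in the text, the calls that ended with lists of 16950 peaks were at Golm1, Kcnk9, Pmepa1, Trabd2b, Cpped1, Tlr4, Traf3, Aim2, Fpr2, Nos2, Tnfaip3, Socs3, Gbp2, Anxa2, P2ry12, Cst3, Sparc (the distal interval), Tgfbr2, Smad1, Acvrl1, Ets2, Hk2, Apoc1, Cd36, Lpl, Prkcz, Pecam1, Tet2, Ern1, Sall1 (the start), H2-K1, F13a1 and Csf3r. With all deposited peaks they were at Golm1 (the rise), Ptprs, Irak2, Irak3, Gbp2, Tnf, Socs3 (the fall), Oasl2, P2ry12, Tmem119, Sparc (the distal interval), Mef2a (the start), Sall1, Tjp1, Il6st, H2-K1, Ltf and Csf3r. The fall at Socs3 and the rise at Tnf also ended without the libraries of identity number 3. With the exact permutation test the calls that ended included Cpped1, Mylk2, Tmem63a, H6pd, Mapk14, Irak3, Irf7, Tnf, Tnfaip3, Cxcl2, Gbp2, Oasl2 and Tmem119. That test also ended calls at Sparc (the rise), Mef2c, Mef2a (the start), Sall1 (the start), Pfkfb3, Slc7a11, Lgals3, H2-K1, Cd40, Actb and Csf3r. The limit on q ended those at Thrb, Trabd2b, Ptprs, Klhl3, Nav2, Trpm1, Zdhhc14, Golm1 (the rise), Irak2, Irak3, Tnf, Il1rn, Gbp2 and Oasl2. It also ended those at P2ry12, Cst3, Sparc (start, distal interval and rise), Tmem119, Mef2c, Mef2a (the start), Sall1, Tgfbr2 and Cd68. Calls at Prkcz, Tjp1, Il6st, H2-K1, Ltf, Hspa8 and Csf3r ended with it too. Leaving out 1 library ended 10 of the 150 calls: the fall at Socs3, the rises within Golm1 and Sparc, the fall at the start of Sall1 and, at intervals not described by value, calls at Cbr2, Cx3cr1, Mef2c, Nlrp3, Ptafr and Rbfox3. Of 1512 counts for gene lists 396 moved by more than 1.5 times, most often with the limit on q (51) and the exact permutation test (41). Counts of 5 or fewer moved by this much with many single libraries left out.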
